A study of Saccharomyces cerevisiae with 8 samples.

Results

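The mating-type specific genes of Saccharomyces cerevisiae are transcribed in haploid cells of a single mating type. Of the 5774 genes in the table, 10 are described here, chosen by name: 6 a-specific genes (MFA1, MFA2, STE2, STE6, BAR1 and AGA2) and 4 α-specific genes (MF(ALPHA)1, MF(ALPHA)2, STE3 and SAG1). They were chosen with the difference between the strains already known, so that the difference between pbp1Δ and WT cells is a description with no test, and the effect of the medium within the strain that expresses each gene is what was tested. All 10 passed the filter on low values. Poly-A RNA was sequenced from 8 libraries of the prototrophic CEN.PK strain, 2 biological replicates in each of 4 groups: pbp1Δ cells 3 h after the switch to lactate medium (YPL), pbp1Δ cells in log phase in glucose medium (YPD), WT cells 3 h after the same switch, and WT cells in log phase in YPD. PBP1, the gene deleted by a hygromycin cassette, encodes a relative of human ataxin-2 that binds the poly(A)-binding protein. The strain list of the study gives WT as MATa and gives no mating type for pbp1Δ, so that the deletion and the mating type cannot be told apart in any difference between the strains.

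A haploid yeast cell secretes a peptide pheromone, carries a receptor for the pheromone of the opposite type, and displays an agglutinin that sticks to the agglutinin of its partner. The a-specific genes are activated by the factor Mcm1 and are shut off in α cells by the repressor α2 together with Mcm1, whereas the α-specific genes need the activator α1 together with Mcm1. Receptors of either type feed into the same G protein and MAP kinase cascade, which ends at the transcription factor Ste12.

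The sequence bound by α2 and Mcm1 is shown because a match lies upstream of every a-specific member. Within 500 bases before the start codon, all 6 a-specific genes and none of the 4 α-specific genes held a match to TGT, CC, GG and ACA in this order, with 6 bases between CC and GG and 4 to 6 bases on either side. The pattern reads alike on both strands. It was found before 19 of the 5774 genes (0.329%), and its spacing was chosen after the windows of the members had been read. Each sequence is on the strand of its gene, from the RefSeq R64 assembly, with the 4 fixed parts in capitals. The matches lie 296 to 184 bases before the start codon.
MFA1: TGTaattaCCcaaaaaGGaaatttACA
MFA2: TGTatttaCCtattcgGGaaatttACA
STE2: TGTaaatttCCtaattgGGtaagtACA
STE6: TGTaattaCCtaatagGGaaatttACA
BAR1: TGTaattaCCgtaaaaGGaaattACA
AGA2: TGTaatttCCgaatacGGtaattACA

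Their positions are chrIV:1384944-1384970 on the plus strand for MFA1, chrXIV:352165-352191 on the plus strand for MFA2 and chrVI:82353-82379 on the plus strand for STE2. For STE6 the position is chrXI:46479-46505 on the minus strand, for BAR1 chrIX:322080-322105 on the plus strand and for AGA2 chrVII:437104-437129 on the minus strand. CC and GG 6 bases apart, the core that Mcm1 recognizes and a part of this pattern, occurred before 49.2% of all genes.

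Among the α-specific genes, the letters CAATGAC, which lie in the element bound by α1, were found before STE3 and SAG1 and before none of the a-specific genes. They occurred on either strand before 5.65% of all genes. Both matches are on the strand opposite to the gene and are printed on the plus strand of R64, with CAATGAC in capitals.
STE3: aattagtgtcaCAATGACagagaaaattgt
SAG1: aattaggtcatCAATGACctgcaaaacaaa

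The stretches shown are chrXI:114949-114978 for STE3 and chrX:445201-445230 for SAG1. Neither MF(ALPHA)1 nor MF(ALPHA)2 held these exact letters in the window, which says nothing of whether α1 binds there. The pheromone response element TGAAACA, the site of Ste12, was found on either strand before all 6 a-specific genes, before MF(ALPHA)2 and SAG1, and before 11.7% of all genes, and in the members it overlapped neither pattern. After the stop codon, the Puf3 element TGTANATA occurred within 200 bases of STE6 alone among the 10 members, and of 14.5% of all genes. Pbp1 is studied for its link to Puf3, an RNA-binding protein of transcripts for mitochondrial proteins.

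**Figure D1:**
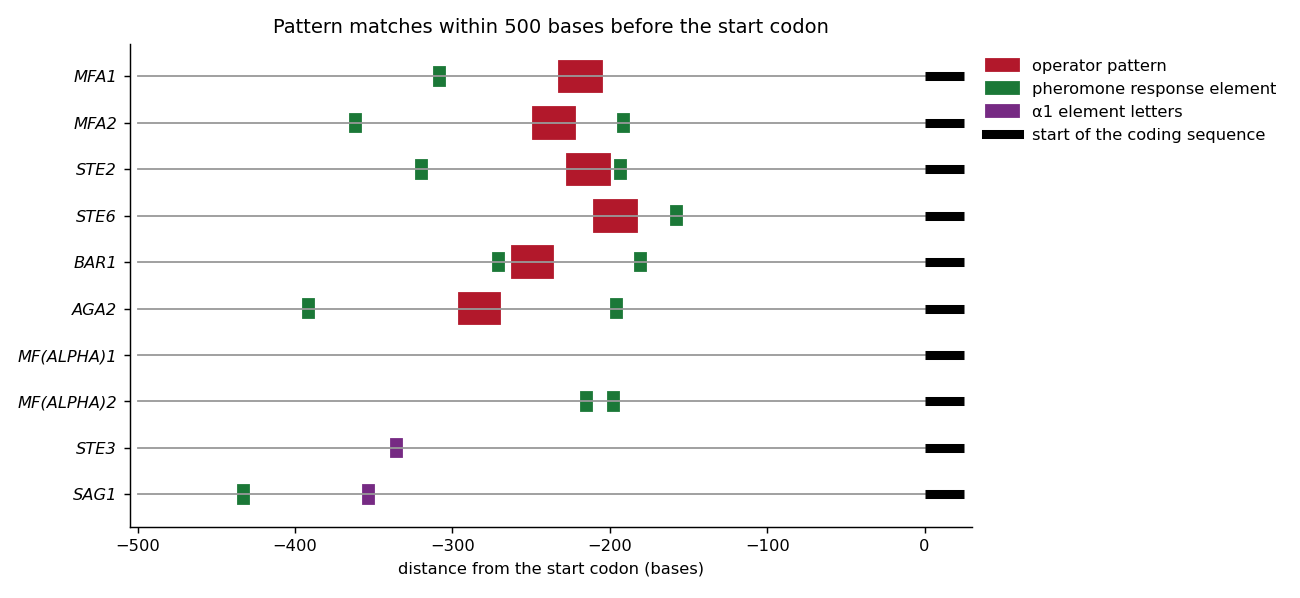
Each line is the stretch of 500 bases before the start codon of a member, with the distance in bases on the horizontal axis. Red boxes are the operator pattern, green boxes the pheromone response element and purple boxes the α1 element letters; the operator is in the 6 a-specific genes, 296 to 184 bases before the start codon.

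The libraries held 33651287 to 39476235 reads, counted by dividing each value by what 1 read is worth in its library, and the 3 reads up to which a gene counted at 0 can lie correspond to 2.67 to 3.48 normalized counts. PBP1 had 0 and 0.928 normalized counts in pbp1Δ cells in YPL and 0 in both libraries in YPD, against 11112 and 11202 in WT cells in YPL and 12686 and 11943 in YPD. HMRA1, whose sequence is shared with the MATa1 gene of a cells, was at 0 in all 4 pbp1Δ libraries, against 1509 and 1475 normalized counts in WT cells in YPL and 1302 and 1174 in YPD. The 7 haploid-specific transcripts, which a/α diploids shut off, summed to 19880 to 34860 normalized counts in pbp1Δ libraries and to 21469 to 36777 in WT libraries. The 4 meiosis transcripts IME1, IME2, NDT80 and SPO11 summed to 1597 to 2611 normalized counts in pbp1Δ libraries and to 1589 to 2361 in WT libraries. Among them IME1, the inducer of meiosis in a/α diploids, ranged from 247 to 402 in pbp1Δ libraries and from 243 to 332 in WT libraries. NDT80 was higher, from 716 to 1409 in pbp1Δ libraries and from 867 to 1144 in WT libraries. Over all tested genes, the log2 difference between the replicates of a group had an SD of 0.31 in pbp1Δ cells and 0.22 in WT cells in YPL, and of 0.53 in pbp1Δ cells and 0.58 in WT cells in YPD.

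In the switch to lactate, each of the 10 members was lower in YPL than in YPD in the strain that expressed it. For none of them did the 2 libraries of each medium overlap. How many of all tested genes likewise lacked overlap was not counted, so the lack of overlap is a description. Calls were made in limma on log2(normalized count + 1), and needed an absolute log2 fold change over 0.58 and a p under 0.05 after Benjamini-Hochberg adjustment over all 5759 tested genes. In WT cells 6 of 6 a-specific genes were called lower, where 15.7% of all tested genes were called lower and 19.3% higher. In pbp1Δ cells 3 of 4 α-specific genes were called lower, where 15.1% of all tested genes were called lower and 18.1% higher. The median log2 fold change was -2.61 for the α-specific genes in pbp1Δ cells (from -4.52 to -1.22) and -2.18 for the a-specific genes in WT cells (from -2.85 to -1.08). Over all tested genes it was 0.011 in pbp1Δ cells and -0.0012 in WT cells. Without WT replicate 1 in YPD the a-specific median was -2.45, and without WT replicate 2 in YPD it was -1.91.

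**Figure D2:**
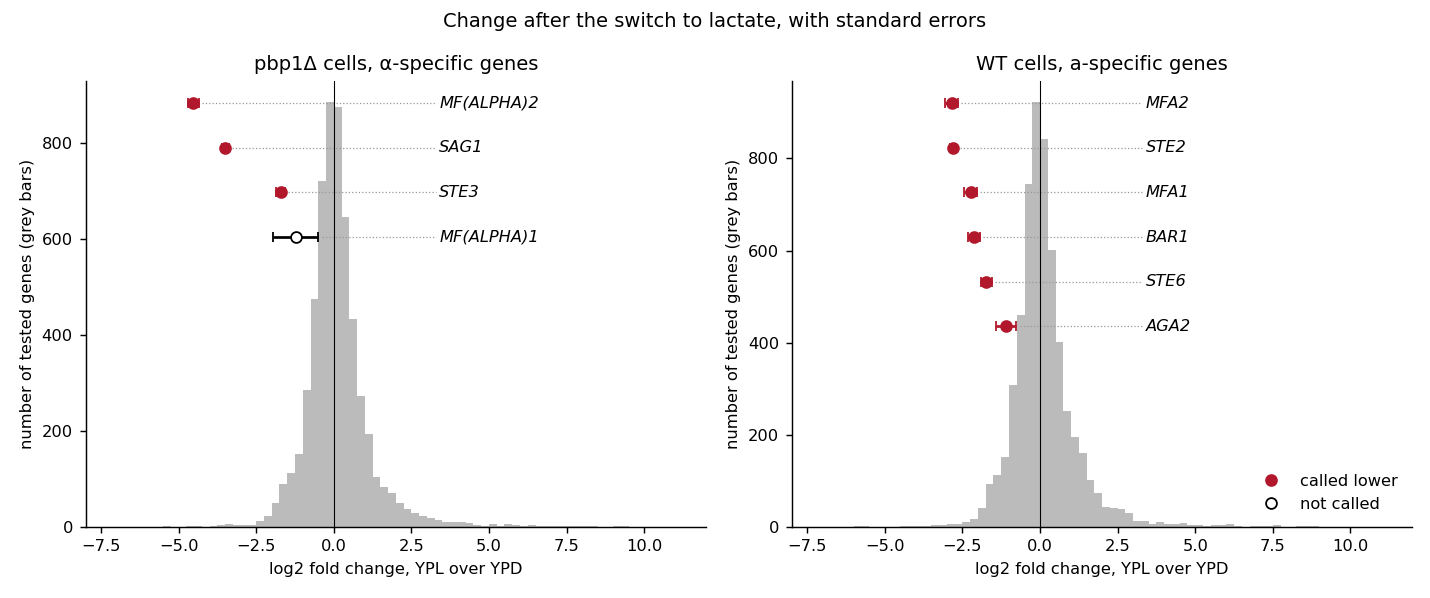
Grey bars count all 5759 tested genes by their log2 fold change, YPL over YPD, in pbp1Δ cells (left) and WT cells (right). Points are the α-specific genes (left) and the a-specific genes (right) with their standard errors; all lie below 0, and MF(ALPHA)1 is the open point that was not called.

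Both a-factor genes were among the steepest decreases in WT cells. MFA1 (YDR461W, chrIV:1385176-1385286, a single coding segment of 111 nt) encodes a precursor of a-factor, the lipid-modified pheromone of a cells. It had 43.2 and 39.0 normalized counts in pbp1Δ cells in YPL and 27.9 and 34.2 in YPD, against 2013 and 1904 in WT cells in YPL and 7704 and 11016 in YPD. The WT libraries in YPL lay 4.78-fold below those in YPD by their means. The log2 fold change was -2.23 (SE 0.21, adjusted p = 0.000318 in limma), rank 40 among the 5759 genes ordered by decrease in WT cells.

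MFA2 (YNL145W, chrXIV:352414-352530, 117 nt) encodes the other a-factor precursor. Its normalized counts were 58.5 and 52.9 in pbp1Δ cells in YPL and 69.1 and 77.5 in YPD, against 2889 and 2178 in WT cells in YPL and 15321 and 21269.7 in YPD. In WT cells the level in YPL was 13.8% of that in YPD, a log2 fold change of -2.85 (SE 0.21, adjusted p = 0.000139 in limma) and rank 17. The coding sequences of MFA1 and MFA2 share no identical run longer than 11 nt. Per kb of coding sequence, MFA2 made up 57.7% and 52.0% of the reads of the pair in WT cells in YPL, and 65.4% and 64.7% in YPD, so that its share was lower in both YPL libraries.

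The α-factor genes gave decreases of unequal size in pbp1Δ cells, of which the smaller did not pass the test. MF(ALPHA)1 (YPL187W, chrXVI:193648-194145, 498 nt) encodes the major α-factor precursor. It had 36615 and 33306 normalized counts in pbp1Δ cells in YPL and 69010.3 and 96273 in YPD, against 21.4 and 3.00 in WT cells in YPL and 52.2 and 75.8 in YPD. In pbp1Δ cells the log2 fold change of -1.22 (SE 0.73) did not pass the test (adjusted p = 0.212 in limma), although its libraries did not overlap. That standard error pools all 8 libraries, among them the WT libraries with 27 reads in YPL and 123 in YPD together. With the pbp1Δ libraries alone the SE was 0.19 and the adjusted p was 0.00728, and without WT replicate 1 or 2 in YPL the adjusted p was 0.0150 or 0.0146, so that the call depends on which libraries enter the fit.

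MF(ALPHA)2 (YGL089C, chrVII:344791-345153, 363 nt), the minor α-factor gene, showed the deepest decrease of the 10 members. It had 559 and 690.1 normalized counts in pbp1Δ cells in YPL and 14449 and 14134 in YPD, against 350.4 and 331 in WT cells in YPL and 196 and 268 in YPD. In pbp1Δ cells its level in YPL was 4.37% of that in YPD, a 22.9-fold decrease with a log2 fold change of -4.52 (SE 0.18, adjusted p = 2.32e-05 in limma) and rank 3 of 5759 by decrease. In YPL the pbp1Δ libraries stood 1.83-fold above the WT libraries by their means, and in YPD 61.5-fold. The longest run shared by the coding sequences of MF(ALPHA)1 and MF(ALPHA)2 is 23 nt. Per kb, MF(ALPHA)2 made up 2.05% and 2.76% of the reads of the pair in pbp1Δ cells in YPL, and 22.3% and 16.8% in YPD.

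**Figure D3:**
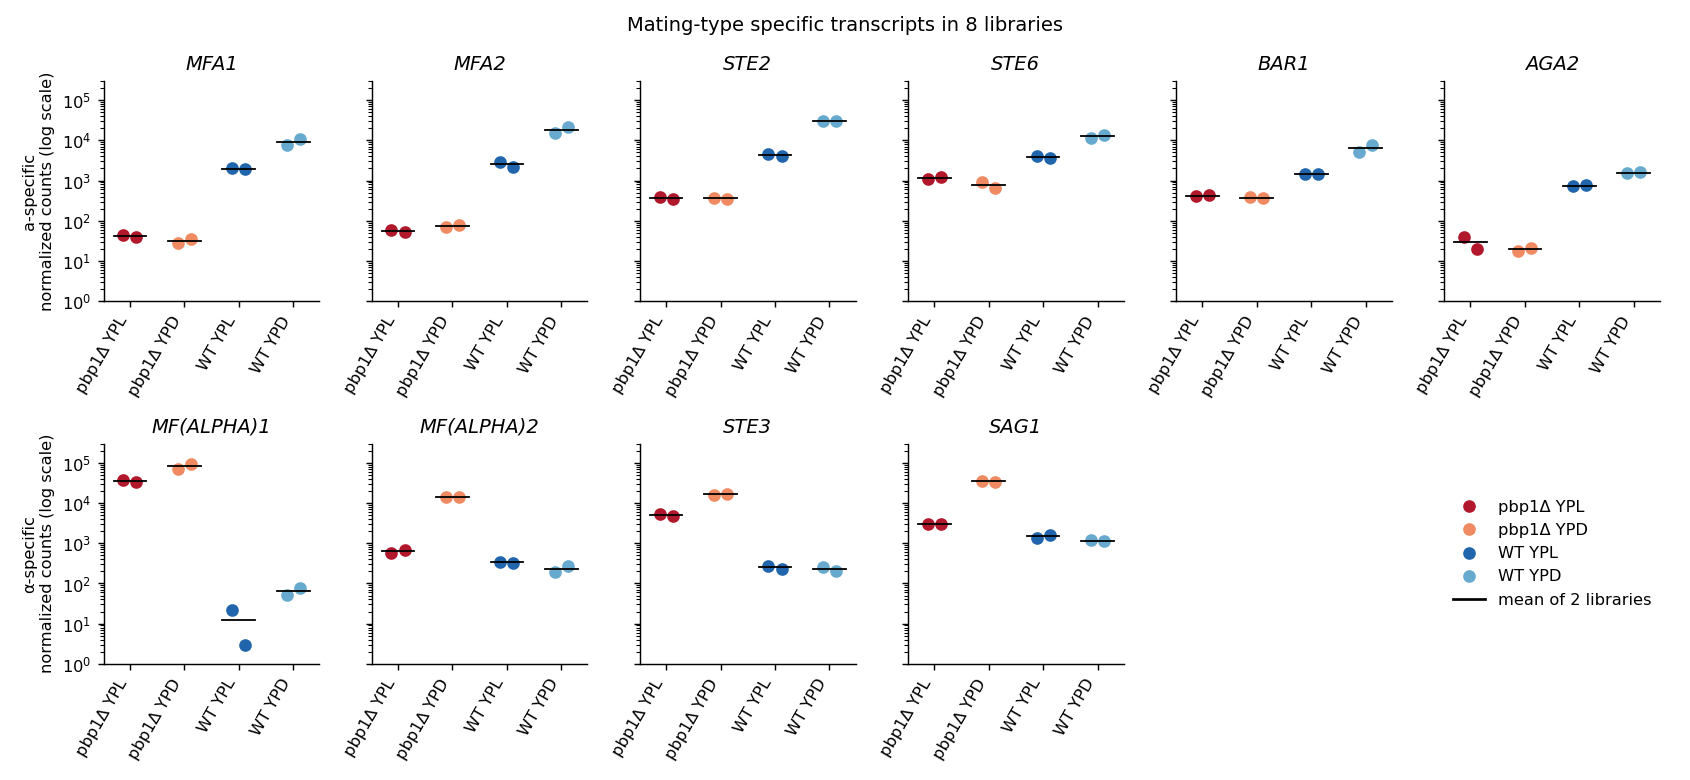
Normalized counts (log scale) of the 10 members in the 8 libraries, with 2 points per group and a line at their mean, a-specific genes above and α-specific genes below. The a-specific transcripts are highest in WT cells in YPD and the α-specific transcripts in pbp1Δ cells in YPD; MF(ALPHA)2 and SAG1 in YPL lie close to the WT libraries, at 1.83-fold and 2.03-fold.

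Each receptor transcript was lower in YPL in the strain that expresses it. STE2 (YFL026W, chrVI:82580-83875, 1296 nt) encodes the α-factor receptor of a cells. It had 390.3 and 345 normalized counts in pbp1Δ cells in YPL and 377 and 355 in YPD, against 4499 and 4165 in WT cells in YPL and 29992 and 30338 in YPD. In WT cells it was 6.96-fold lower in YPL, with a log2 fold change of -2.80 (SE 0.11, adjusted p = 1.84e-05 in limma), and in pbp1Δ cells its 4 libraries overlapped between the media. STE3 (YKL178C, chrXI:113215-114627, 1413 nt) encodes the a-factor receptor of α cells. Its normalized counts were 5451 and 4744 in pbp1Δ cells in YPL and 16267 and 17118.5 in YPD, against 275 and 234 in WT cells in YPL and 258 and 209 in YPD. In pbp1Δ cells it was 3.27-fold lower in YPL, with a log2 fold change of -1.71 (SE 0.15, adjusted p = 0.000271 in limma).

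The genes that export a-factor and degrade α-factor fell in WT cells. STE6 (YKL209C, chrXI:42423-46295, 3873 nt) encodes the ABC transporter that carries a-factor out of the cell. It had 1074 and 1241 normalized counts in pbp1Δ cells in YPL and 907 and 661 in YPD, against 3973 and 3621 in WT cells in YPL and 11358 and 13854.5 in YPD. In WT cells its log2 fold change was -1.73 (SE 0.18, adjusted p = 0.000551 in limma). BAR1 (YIL015W, chrIX:322342-324105, 1764 nt) encodes the secreted protease that cleaves α-factor. Normalized counts of BAR1 were 409 and 431 in pbp1Δ cells in YPL and 385 and 363 in YPD, against 1473 and 1419 in WT cells in YPL and 5184 and 7655 in YPD. It was 4.44-fold lower in YPL in WT cells, with a log2 fold change of -2.12 (SE 0.19, adjusted p = 0.00024 in limma). Of the a-specific transcripts, STE6 and BAR1 had the highest levels in pbp1Δ cells relative to WT, at 30.5% and 29.1% in YPL and at 6.22% and 5.83% in YPD.

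Agglutinin transcripts gave the smallest decrease of the a-specific genes and the second deepest of the α-specific genes. AGA2 (YGL032C, chrVII:436570-436833, 264 nt) encodes the binding subunit of a-agglutinin, which is tethered to the wall by Aga1. It had 39.3 and 19.5 normalized counts in pbp1Δ cells in YPL and 17.8 and 21.1 in YPD, against 715 and 766 in WT cells in YPL and 1507 and 1633 in YPD. In WT cells the log2 fold change was -1.08 (SE 0.32, adjusted p = 0.0331 in limma). That standard error pools all 8 libraries, among them the pbp1Δ libraries with 62 reads in YPL and 37 in YPD together. With the WT libraries alone the SE was 0.12 and the adjusted p was 0.00557 in limma. In the fit of all groups the call was lost when any of the 4 WT libraries was left out, with log2 fold changes from -1.14 to -1.03.

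SAG1 (YJR004C, chrX:442909-444861, 1953 nt) encodes α-agglutinin, the partner of Aga2 on α cells. Its libraries held 3056 and 3057 normalized counts in pbp1Δ cells in YPL and 36032 and 33265 in YPD, against 1361 and 1647 in WT cells in YPL and 1198 and 1127 in YPD. In pbp1Δ cells it was 11.3-fold lower in YPL, with a log2 fold change of -3.50 (SE 0.12, adjusted p = 1.19e-05 in limma) and rank 10 by decrease. In YPL its mean in pbp1Δ cells was 2.03-fold that in WT cells, against 29.8-fold in YPD.

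Scaled to coding length, MF(ALPHA)1 stood highest of the α-specific genes in pbp1Δ cells and MFA2 of the a-specific genes in WT cells, in each medium. The place of MFA2 depends on this scaling, as MFA1 and MFA2 have only 111 and 117 nt of coding sequence. Unscaled, STE2 was the highest a-specific gene in WT cells. Its mean was 4332 normalized counts against 2533 for MFA2 in YPL, and 30165 against 18295 in YPD. The order in pbp1Δ cells was MF(ALPHA)1, STE3, MF(ALPHA)2 and SAG1 in YPL, with means of 70201 ± 4698, 3607 ± 354, 1721 ± 255 and 1565 ± 0.42 normalized counts per kb (SD, n = 2), and the libraries of the last pair overlapped. It was MF(ALPHA)1, MF(ALPHA)2, SAG1 and STE3 in pbp1Δ cells in YPD, with 165947 ± 38710, 39370.1 ± 613, 17741 ± 1002 and 11814 ± 426 per kb (SD, n = 2) and no overlap between neighbours. STE3 thus took the last place in YPD and the place after MF(ALPHA)1 in YPL. For the a-specific genes in WT cells the order in YPL was MFA2, MFA1, STE2, AGA2, STE6 and BAR1, from 21651 ± 4298 for MFA2 to 819.6 ± 21.7 for BAR1 per kb (SD, n = 2), with no overlap between neighbours. In YPD the first 4 places were the same, from 156369 ± 35954 for MFA2 to 3255 ± 456 for STE6 per kb (SD, n = 2), and BAR1 and STE6, the last pair, overlapped.

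**Figure D4:**
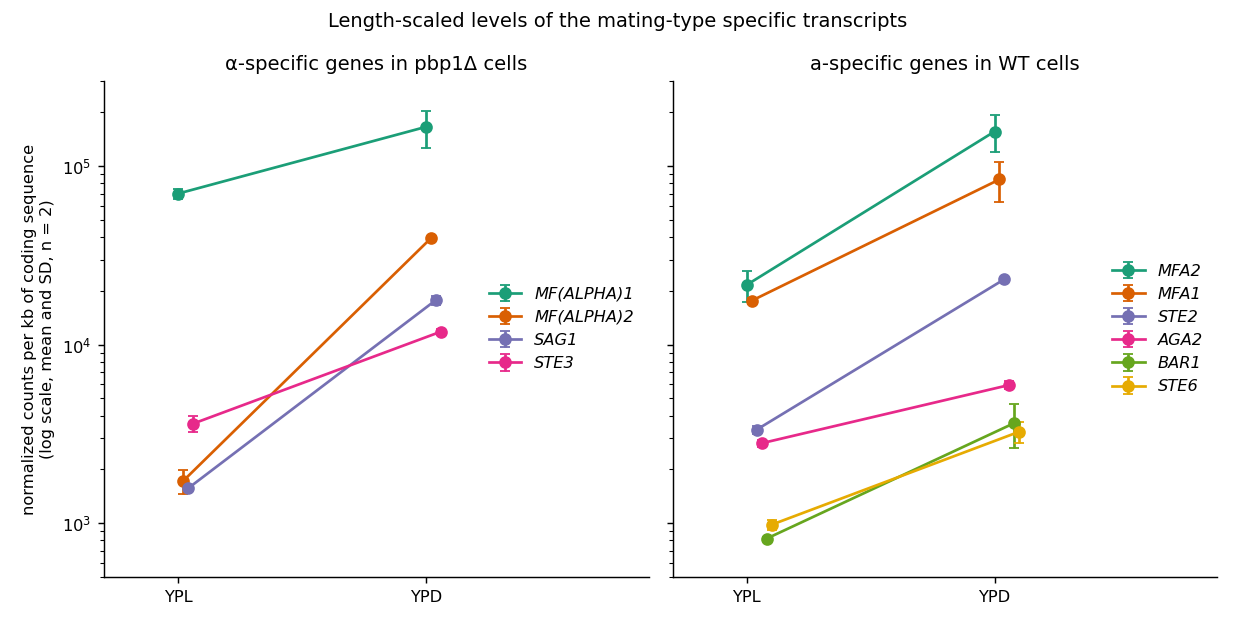
Normalized counts per kb of coding sequence (log scale) in YPL and YPD, as mean and SD of 2 libraries, for the α-specific genes in pbp1Δ cells (left) and the a-specific genes in WT cells (right). Lines join the same gene in the 2 media; those of MF(ALPHA)2 and SAG1 cross that of STE3, which stands at 3607 per kb in YPL and 11814 in YPD.

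The transcripts of the opposite mating type remained detectable at unequal levels. These are bulk libraries, and whether the levels reflect the number of cells of a type or the RNA per cell was not tested. HMRA1 was at 0 in all pbp1Δ libraries. By their means, a-specific transcripts in pbp1Δ cells were 2.10% to 30.5% of WT in YPL and 0.332% to 6.22% in YPD. The α-specific transcripts in WT cells were 0.0349% to 54.5% of pbp1Δ in YPL and 0.0775% to 3.36% in YPD, lowest for MF(ALPHA)1 in each medium. The value of 0.0349% rests on 24 and 3 reads, and was 0.00858% without WT replicate 1 in YPL and 0.0612% without WT replicate 2 in YPL. Summed over the 6 genes, a-specific transcripts came to 2015 to 2129 normalized counts in pbp1Δ cells in YPL and 1512 to 1783 in YPD, against 14052 to 15561 in WT cells in YPL and 71066 to 85766 in YPD. Summed over the 4 genes, α-specific transcripts came to 41797 to 45681 in pbp1Δ cells in YPL and 135758 to 160790 in YPD, against 2008 to 2215 in WT cells in YPL and 1680 to 1704 in YPD. MF(ALPHA)1 is the most abundant α-specific transcript of pbp1Δ cells and the rarest of the set in WT cells, so that the members did not keep a single ratio between the strains.

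Further genes known to be specific to a mating type are AFB1, an α-specific gene whose product acts as a barrier to a-factor, and ASG7, an a-specific gene that dampens signalling after mating. AFB1 (YLR040C) had 3888 and 3047 normalized counts in pbp1Δ cells in YPL and 12099 and 11449 in YPD, against 541 and 553 in WT cells in YPL and 499 and 581 in YPD. Its log2 fold change in pbp1Δ cells was -1.77 (SE 0.15, adjusted p = 0.000215 in limma). ASG7 (YJL170C) had 82.5 and 67.7 normalized counts in pbp1Δ cells in YPL and 141 and 61.4 in YPD, against 259 and 278 in WT cells in YPL and 468 and 310.1 in YPD. In WT cells its log2 fold change of -0.50 (SE 0.41) did not pass the test (adjusted p = 0.353 in limma). HMRA1 gave 0.27 (SE 0.25, adjusted p = 0.411 in limma) in WT cells.

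Beyond the members, 45 genes of the mating pathway were tested from lists of pheromone maturation, shared signalling, pheromone-induced genes and control of mating type. In pbp1Δ cells 13 were called lower and 1 higher, beside 15.1% lower and 18.1% higher over all tested genes. In WT cells 8 were called lower and 1 higher, beside 15.7% lower and 19.3% higher, so that the share called lower was near that of all genes. Their median log2 fold changes were -0.29 in pbp1Δ cells and -0.25 in WT cells. The WT count of 9 fell without WT replicate 1 or 2 in YPL, and so did the count over all tested genes. Among 15 shared signalling genes, 5 were called lower in pbp1Δ cells and 4 in WT cells, where 15.1% and 15.7% of all tested genes were. SST2, the regulator that turns the G protein off, had log2 fold changes of -2.16 in pbp1Δ cells (adjusted p = 0.000500 in limma) and -1.74 in WT cells (adjusted p = 0.00111 in limma). FAR1, which arrests the cell cycle in response to pheromone, gave -1.33 in pbp1Δ cells and -1.10 in WT cells. STE4, the Gβ subunit, gave -0.87 and -1.04 in pbp1Δ and WT cells, and STE12 gave -0.89 and -0.64. The last call in pbp1Δ cells was the MAP kinase gene FUS3 at -0.61, named after its value was seen; in WT cells its value of -0.30 did not pass.

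Pheromone-induced genes were called lower in 6 of 10 cases in pbp1Δ cells and in 2 of 10 in WT cells, beside 15.1% of all tested genes in pbp1Δ cells and 15.7% in WT cells. The WT count is near that background, and the difference between the counts was not tested. FIG1, a membrane protein of mating cells, had 3.84 and 8.35 normalized counts in pbp1Δ cells in YPL and 65.8 and 78.5 in YPD, against 16.9 and 8.0 in WT cells in YPL and 4.64 and 20.4 in YPD. Its log2 fold change in pbp1Δ cells was -3.44 (SE 0.74, adjusted p = 0.010 in limma). The values in pbp1Δ cells in YPL rest on few reads, as 3 reads correspond to 2.88 and 2.78 normalized counts there. The size of this decrease is therefore uncertain, and with a filter at a mean of 100 FIG1 was not tested. AGA1, the anchor subunit of a-agglutinin, gave -1.96 in pbp1Δ cells and -1.03 in WT cells, and FUS1, needed for cell fusion, gave -1.66 in pbp1Δ cells and in WT cells -0.70, which did not pass (adjusted p = 0.104 in limma). FUS2, which also acts in fusion, was called in each strain at -0.86 in pbp1Δ cells and -0.82 in WT cells.

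**Figure D5:**
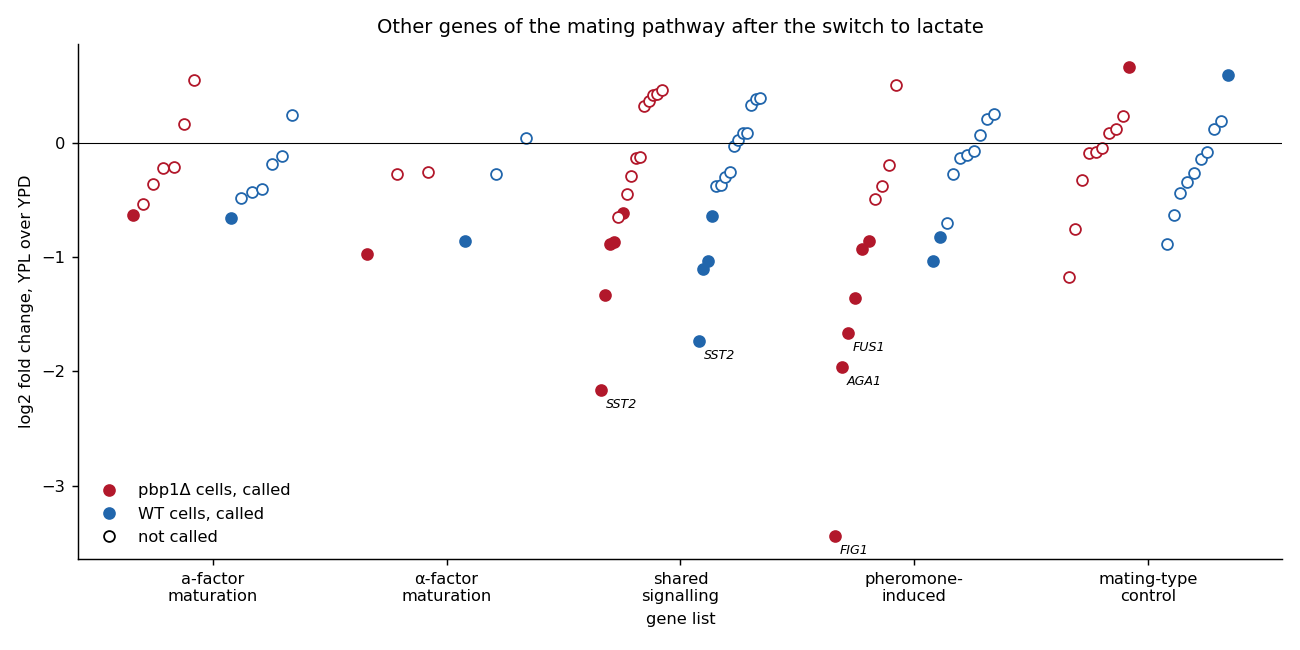
Log2 fold change, YPL over YPD, of 45 mating pathway genes in 5 lists, red for pbp1Δ cells and blue for WT cells, filled where called. The lowest points are FIG1 at -3.44, SST2 at -2.16 and AGA1 at -1.96, all in pbp1Δ cells, and that of FIG1 rests on few reads in YPL.

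Of 3 genes that process the α-factor precursor, the protease gene KEX2 was called lower, at -0.97 in pbp1Δ cells and -0.85 in WT cells. Of 7 genes for a-factor maturation, RCE1, a protease of the CAAX motif, was called lower at -0.63 in pbp1Δ cells and -0.66 in WT cells. Among 10 tested genes for mating-type control, SIR1, a silencing factor of the silent mating-type loci, was called higher at 0.66 in pbp1Δ cells and 0.59 in WT cells. Between the media, 15.1% of all tested genes were called lower and 18.1% higher in pbp1Δ cells. In WT cells 15.7% were called lower and 19.3% higher. A single call in lists this short is therefore no result about the list. Between the strains, AGA1 was the gene called among these 45 in either medium with all libraries and no block. AGA1 had 3060.1 and 2841 normalized counts in pbp1Δ cells in YPL and 10054 and 13061 in YPD, against 1161 and 1423 in WT cells in YPL and 2352 and 2948 in YPD. The log2 fold change of pbp1Δ over WT was 1.20 in YPL (SE 0.18, adjusted p = 0.0141 in limma) and 2.12 in YPD (SE 0.18, adjusted p = 0.00513 in limma). For these contrasts 0.521% of all tested genes were called higher and 4.17% lower in YPL, and 0.104% higher and 0.868% lower in YPD. The AGA1 call in YPL was lost without WT replicate 1, without WT replicate 2 or without pbp1Δ replicate 1, all in YPL, and in both media with a replicate block within each strain. With a replicate block over all libraries, 2 of the 45 genes were called in YPD. More of them were also called in each medium when the YPD libraries of 1 number were left out in both strains. Those fits kept 1 library in each YPD group, so that their spread came from the YPL libraries, whose replicates differed less. Under all these alternatives more of all tested genes were called between media. The share of all genes called between the strains was not counted there, so these counts are no result about the pathway. Same-numbered YPD libraries of the strains deviated together, with a correlation of 0.85.

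The transcripts with profiles most like the members were found by Pearson's r over the 8 libraries, among genes with a range of at least 2 on the log2 scale. The libraries form 4 groups, and r is given as a description. Of 770 candidates, AFB1 was nearest to the mean profile of the α-specific genes (r = 0.996), followed by AGA1 (0.889), COS12 (0.840), FUS1 (0.834) and MEI5 (0.713). Of 768 candidates, PBP1, which was deleted in the strain with few a-specific transcripts, was nearest to the a-specific profile (r = 0.957). After it came YDR210W-B (0.951), HMRA1 (0.950), YMR321C (0.935) and YRF1-4 (0.928). YDR210W-B and YRF1-4 each overlap 1 other annotated gene, COS12 and YRF1-4 belong to multigene families, and their counts are therefore uncertain. None of the 10 members overlaps an annotated gene.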

How the data were processed

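The data are poly-A RNA-seq of 8 libraries from pbp1Δ and WT cells in YPL (3 h) and YPD. The authors trimmed the reads with Trim Galore, mapped them to S288C with STAR 2.7.3a, took the unique ones, counted them on R64-1-1 with featureCounts (Subread 1.6.3) and normalized them with DESeq2. The strand setting is not given in the sources used here. The authors deposited normalized counts, a linear signal with 1 scaling factor per library and no scaling by gene length, and all 5774 identifiers matched RefSeq R64. At a tolerance of 0.01 read, 100% of values were whole multiples of 1 read, worth 0.892 to 1.16 normalized counts. Limits from 3 reads cover counting error only.

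Genes whose mean was 10 or more (5759) were kept, and log2(normalized count + 1) was fitted in limma 3.58.1 (R 4.3.3), with 4 groups in a single model and a trend in the mean. Fold changes on this scale understate those of low genes. The fit was tested on simulated data with independent libraries, which lack the shared deviation of the same-numbered YPD libraries. With 2 libraries against 2, permutation cannot reach the threshold, and the tests rest on the model. Correlations of same-numbered deviations between YPL and YPD were -0.020 in pbp1Δ and -0.22 in WT cells, so that the numbers were not used to pair media. Other tables and plots used Python 3.11.15, numpy 2.4.6, pandas 2.3.3, Biopython 1.88 and matplotlib 3.10.9.

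The members, lists and alternatives were chosen with earlier results of these data known. Genes named are the members; AFB1, ASG7, HMRA1 and PBP1; up to 3 called genes per list and contrast of media by size; and the 5 nearest profiles to each set. MATALPHA1, MATALPHA2, HMLALPHA1, HMLALPHA2 and HMRA2 were listed for mating-type control and not analysed here. Sequence patterns were searched in 500 bases before the start codon and 200 bases after the stop codon. The alternatives were other pseudocounts, filters, scaling, thresholds and spread models, the fit of each strain alone, replicate blocks, and leaving out libraries.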

Additional observations from a re-analysis of the deposited data

Results flagged for a closer look

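For 5 members the libraries of the 2 strains moved in opposite directions with the medium, without overlap between YPL and YPD in either strain. How many of all genes did so was not counted, so the number of members is a description. The log2 fold changes of YPL over YPD were 0.40 in pbp1Δ cells and -2.23 in WT cells for MFA1, a difference of 2.63. For STE6 they were 0.58 in pbp1Δ cells and -1.73 in WT cells, a difference of 2.30, and for BAR1 0.17 and -2.12 in pbp1Δ and WT cells, a difference of 2.29. For MF(ALPHA)2 they were -4.52 in pbp1Δ cells and 0.57 in WT cells, a difference of -5.09, and for SAG1 -3.50 and 0.37 in pbp1Δ and WT cells, a difference of -3.87. These differences between the strains were not tested. In each case the strain with the positive value is the one with the lower mean of the transcript in both media. That lower mean was not always small, and in YPL it was 54.5% of the higher for MF(ALPHA)2 and 49.2% for SAG1.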

How the results depend on the processing

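Over 21 alternatives, 8 of the 10 members kept their direction and their call in all, and no member reversed. Leaving out a library could not reverse a direction, as the libraries of the 2 media did not overlap. Filters, replicate blocks and spread models left the log2 fold changes as they were. The kept direction is therefore no support, and these alternatives bear on the calls. AGA2 lost its call in 7 and MF(ALPHA)1 gained one in 3; the range of adjusted p was 0.00557 to 0.138 for AGA2 and 0.00728 to 0.457 for MF(ALPHA)1. Centring each library on its median shifted the log2 fold changes by -0.13 in both strains, which moved the α-specific median to -2.74 and the split of all called genes to 841 higher and 1174 lower in pbp1Δ cells (1045 and 871 as deposited) and to 941 and 1167 in WT cells (1110 and 907 as deposited). Without a fold change threshold, 2643 of the 5759 tested genes were called between media in pbp1Δ cells (1916 with it) and 2700 in WT cells (2017 with it). Beside this rise over all genes, 24 genes of the mating pathway were called in pbp1Δ cells (14 with it) and 16 in WT cells (9 with it). Leaving out a library could move the pathway counts as well as the count over all tested genes, and gave an a-specific median of -2.45 to -1.91. A lone library left in a group was assumed to vary like the others. Same-numbered YPD libraries of the 2 strains deviated together (correlation 0.85). Hence 2 alternatives added after seeing the data left out a number of YPD in both strains. Without number 1 the a-specific median was -2.45, and without number 2 it was -1.91. More pathway genes then differed between the strains, and more of all tested genes were called between media. With 1 library left in each YPD group, the spread came from the YPL libraries alone. With a replicate block over all libraries, 1972 genes were called between media in pbp1Δ cells and 2065 in WT cells, and 2 pathway genes differed between the strains in YPD. With a replicate block within each strain, 1790 and 1887 genes were called in pbp1Δ and WT cells, the pathway count in WT cells was 5, and limma called 0 pathway genes between the strains in YPL and in YPD (3 and 6 at an unadjusted p under 0.05); AGA2 gave an adjusted p of 0.0726. With the numbers of WT crossed in that block, also added after seeing the data, limma again called 0 (4 and 8 at an unadjusted p under 0.05). The causes were not tested. Count models (edgeR, DESeq2) were planned but not run; the reads derived from the normalized counts serve only to describe depth.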
